A study of Arabidopsis with 27 samples.

Results

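The respiratory burst oxidase homologue (RBOH) family of Arabidopsis thaliana comprises the 10 NADPH oxidase genes RBOHA to RBOHJ. They were taken from the deposited expression table by their locus identifiers, 10 of the 32824 genes listed. RBOH proteins sit in the plasma membrane, take electrons from cytosolic NADPH and pass them to oxygen outside the cell, where the superoxide formed is converted to hydrogen peroxide. Calcium binding to EF hands in the N-terminal region and phosphorylation by several kinases switch the enzymes on, so much of their control acts on the protein and is not seen in RNA. In rosettes, RBOHD is known for the burst that follows pathogen or wound signals and for the wave of reactive oxygen species that passes from a stimulated leaf to distant leaves. The kinase P2K1, a receptor for extracellular ATP, is known to phosphorylate RBOHD.

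RNA was sequenced from untreated (systemic) rosette leaves frozen 30 min after another leaf of the same plant had been treated. The plants were 4 weeks old and grown with short days, and each library pooled 8 plants. The p2k1p2k2 double mutant is named for 2 lectin receptor kinases of the extracellular ATP pathway, the glr3.3glr3.6 double mutant for 2 glutamate receptor-like channels, and Col-0 is the wild type. In each genotype the local leaf received eATP (per the labels, 300 µM of the ATP analogue βγmeATP), L-Glu (L-glutamate, 100 mM) or mock buffer, giving 9 groups of 3 libraries. The labels give no further allele, transgene or promoter. Libraries are named by group and replicate number, as in Col-0 mock 1. The p-values below measure the spread between pooled libraries, which the labels do not tie to separate experiments.

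The genotype labels were checked against the targeted genes, measured in FPKM, a measure of fragments per gene corrected for transcript length and library size. P2K1 averaged 6.40 ± 2.57 FPKM in libraries labelled p2k1p2k2, against 1.74 ± 0.380 in glr3.3glr3.6 and 1.60 ± 0.364 in Col-0 (SD, n = 9 each). P2K2 averaged 16.9 ± 8.76 FPKM in libraries labelled p2k1p2k2, 0.472 ± 0.125 in glr3.3glr3.6 and 0.551 ± 0.201 in Col-0. GLR3.6 averaged 95.9 ± 22.1 FPKM in libraries labelled glr3.3glr3.6, 1.12 ± 0.242 in p2k1p2k2 and 1.06 ± 0.217 in Col-0, and GLR3.3 averaged 6.996 ± 0.689, 4.11 ± 0.498 and 3.91 ± 0.533 FPKM in the same order. All 4 genes were therefore higher, not lower, in the libraries named for their mutation, so that transcript abundance does not check the labels as loss of RNA. Each genotype name below stands for the libraries labelled with it.

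The samples carried leaf markers. The summed level of 3 mesophyll genes was 16606 to 23783 FPKM, that of 4 guard cell genes 15.6 to 32.7 FPKM and that of 3 vascular genes 104.5 to 160.5 FPKM over the 27 libraries. Root hair genes summed to at most 0.155, endodermis genes to 0.581, pollen genes to 0.0929 and seed genes to 0.193 FPKM. The root hair gene EXPA7 and the pollen gene PPME1 were at 0 in every library. These are bulk leaf samples, in which fewer cells of a type and less RNA per cell cannot be told apart. Between 21042 and 21843 genes were above 0 per library, the libraries' relative depth, estimated from the steps between low values, spanned 1.60-fold, and absolute depth is unknown. Col-0 eATP 3 had the fewest genes above 0 and the highest summed FPKM.

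The 10 members differed in level by orders of magnitude, and RBOHD provided nearly all RBOH transcript. RBOHD (AT5G47910) averaged 99.1 FPKM over the 27 libraries and ran from 48.7 to 154.7 FPKM, which placed it at rank 1128 of the 32824 genes by mean. RBOHF (AT1G64060), which acts with RBOHD in abscisic acid-induced stomatal closure and in immunity, averaged 1.93 FPKM with a range of 0.908 to 5.17 FPKM, at rank 14926. RBOHD was higher than RBOHF in 27 of 27 libraries, by 24.7 to 97.0 times. It made up 95.9 to 98.9% of the summed FPKM of the family, and RBOHF 1.02 to 3.89%.

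The other 8 members were near or at 0. RBOHC (AT5G51060), the oxidase of root hair growth, averaged 0.152 FPKM and never exceeded 0.560 FPKM. RBOHI (AT4G11230) averaged 0.116 FPKM, up to 0.280 FPKM, and RBOHE (AT1G19230), known from the anther tapetum, averaged 0.0434 FPKM, up to 0.125 FPKM. RBOHG (AT4G25090) was above 0 in 9 of 27 libraries, at up to 0.133 FPKM. RBOHB (AT1G09090), studied in seeds, and RBOHA (AT5G07390) were above 0 in 4 libraries each, at up to 0.0689 and 0.0365 FPKM. RBOHH (AT5G60010) and RBOHJ (AT3G45810), the pair that acts in pollen tube growth, were listed at 0 in all 27 libraries. The 8 low members together summed to between 0.0667 and 0.827 FPKM per library.

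In the order of mean levels only the top steps were free of overlap. RBOHF was above RBOHC in 27 of 27 libraries and the ranges did not meet. RBOHC and RBOHI were not separated, with RBOHC higher in 14 libraries and RBOHI in 13. RBOHI was above RBOHE in 21 libraries, and RBOHE above RBOHG in 23, with overlapping ranges in both cases. RBOHG was above RBOHB in 8 libraries and equal to it in 17. Only RBOHD and RBOHF passed the filter used for testing, a mean of at least 1 FPKM over all libraries, so that 2 of 10 members and 16577 of all genes were tested.

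**Figure D1:**
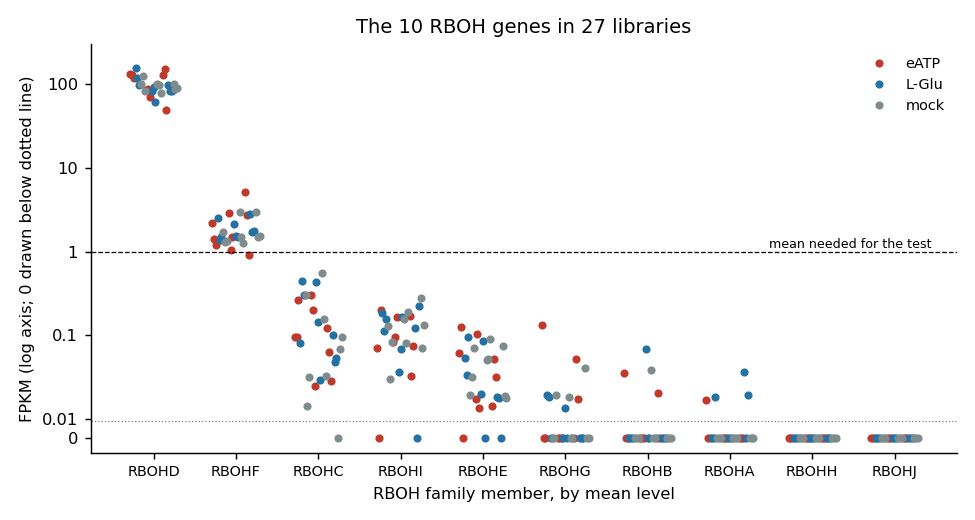
Level of each RBOH gene in each of the 27 libraries, in FPKM on a log axis, with values of 0 drawn below the dotted line and points coloured by treatment. RBOHD lies between 48.7 and 154.7 FPKM, RBOHF between 0.908 and 5.17 FPKM, and every other member below 0.6 FPKM.

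RBOHD was measured in every group with the following values, given in the order of replicate numbers 1, 2 and 3. In p2k1p2k2 it was 85.3, 88.0 and 70.6 FPKM after eATP, 82.1, 92.9 and 61.7 after L-Glu, and 99.4, 98.1 and 77.8 after mock. In glr3.3glr3.6 it was 129.9, 127.7 and 117.9 FPKM after eATP, 154.7, 117.6 and 98.3 after L-Glu, and 100.8, 125.0 and 82.0 after mock. In Col-0 it was 127.5, 149.2 and 48.7 FPKM after eATP, 98.2, 83.1 and 81.8 after L-Glu, and 101.0, 87.5 and 89.7 after mock. All 9 p2k1p2k2 libraries were below 100 FPKM, whereas 7 of 9 glr3.3glr3.6 libraries were above it. Col-0 eATP held both the second highest library of the 27 and the lowest.

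The highest group means of RBOHD were those of glr3.3glr3.6 after eATP, 125.1 ± 6.42 FPKM, and after L-Glu, 123.5 ± 28.7 FPKM (SD, n = 3 each). Col-0 eATP followed at 108.4 ± 52.9, glr3.3glr3.6 mock at 102.6 ± 21.6, Col-0 mock at 92.8 ± 7.27 and p2k1p2k2 mock at 91.8 ± 12.1 FPKM. The lowest were Col-0 L-Glu at 87.7 ± 9.14, p2k1p2k2 eATP at 81.3 ± 9.38 and p2k1p2k2 L-Glu at 78.9 ± 15.9 FPKM. Every pair of neighbours in this order overlapped in their libraries.

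**Figure D2:**
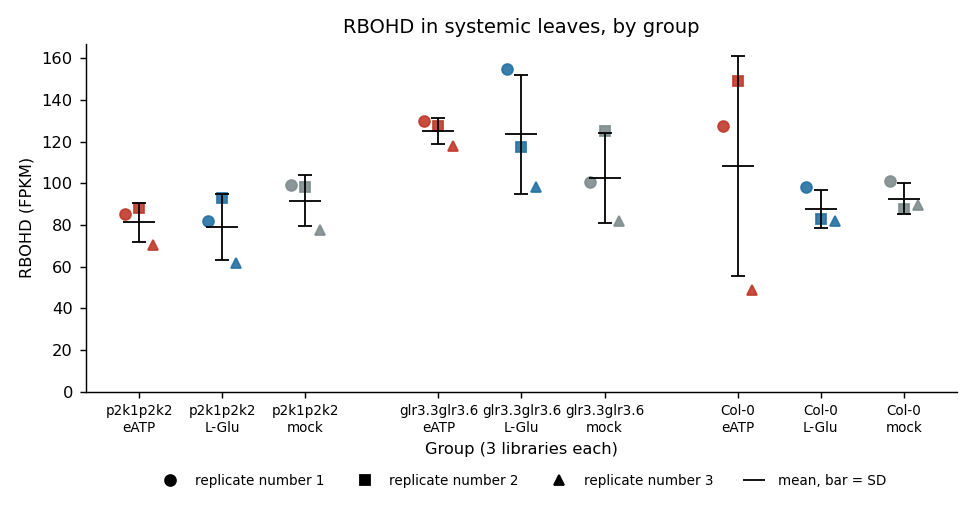
RBOHD level in FPKM in each library, by genotype and treatment, with marker shape for the replicate number and the mean and SD of each group of 3. The p2k1p2k2 libraries lie between 61.7 and 99.4 FPKM and the glr3.3glr3.6 libraries between 82.0 and 154.7 FPKM, and Col-0 eATP spreads from 48.7 to 149.2 FPKM.

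The first question of the design is whether a signal from the treated leaf changes these genes in the distant leaf. No RBOH member passed the test for any treatment in any genotype. Neither did any other gene in the main fit, which left out the replicate number. The test was limma on log2(FPKM + 1), two-sided, with p-values adjusted over all 16577 tested genes by the Benjamini-Hochberg method and called below 0.05. In each of the 9 comparisons of eATP, L-Glu and mock within a genotype 0 of 16577 genes were called (0%). Unadjusted p-values below 0.05 numbered 297, 561 and 438 genes for eATP against mock in p2k1p2k2, glr3.3glr3.6 and Col-0. They numbered 285, 328 and 146 genes for L-Glu against mock, and 270, 276 and 999 for eATP against L-Glu, with the genotypes in the same order. With the replicate number also fitted, as a block across genotypes, eATP against mock called 3 genes (0.0181%) in glr3.3glr3.6 and 1 (0.00603%) in Col-0. None of these was an RBOH member.

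For RBOHD, the difference between eATP and mock on the log2(FPKM + 1) scale was -0.17 in p2k1p2k2 (95% interval -0.740 to 0.399), 0.30 in glr3.3glr3.6 (-0.266 to 0.873) and 0.08 in Col-0 (-0.494 to 0.644). The difference between L-Glu and mock was -0.23 in p2k1p2k2 (-0.796 to 0.343), 0.26 in glr3.3glr3.6 (-0.308 to 0.831) and -0.08 in Col-0 (-0.651 to 0.488). All 6 had an adjusted p of 1 in limma, and the intervals allow changes of more than 1.2-fold in both directions. The Col-0 value for eATP turned on single libraries: without Col-0 eATP 3 it was 0.57, without Col-0 eATP 1 it was -0.12 and without Col-0 eATP 2 it was -0.23. Within replicate numbers 1, 2 and 3, RBOHD after eATP differed from mock in p2k1p2k2 by -0.22, -0.15 and -0.14 on the same scale. In glr3.3glr3.6 the same differences were 0.36, 0.03 and 0.52, and in Col-0 they were 0.33, 0.76 and -0.87. Between eATP and mock, the deviations of number 3 libraries in these 2 genotypes correlated at less than 0.1, the threshold for pairing. In p2k1p2k2, where they reached at least 0.401, the replicate block across genotypes gave an interval of -0.598 to 0.257 for eATP. For L-Glu against mock in p2k1p2k2 the block gave -0.654 to 0.201, and RBOHD was not called in either.

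Averaged over the 3 genotypes, RBOHD differed by 0.07 between eATP and mock (95% interval -0.259 to 0.398), by -0.02 between L-Glu and mock (-0.344 to 0.313) and by 0.09 between eATP and L-Glu (-0.244 to 0.414). RBOHF differed by 0.10 between eATP and mock (-0.295 to 0.492), by 0.06 between L-Glu and mock (-0.334 to 0.454) and by 0.04 between eATP and L-Glu (-0.355 to 0.432). Each had an adjusted p of 1 in limma. In these averaged comparisons 0 of 16577 genes were called (0%), and 263, 176 and 332 genes had an unadjusted p below 0.05.

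The difference of response between genotypes asks whether a mutant reacts otherwise than Col-0. For RBOHD the response to eATP differed by -0.25 between p2k1p2k2 and Col-0 (95% interval -1.05 to 0.559) and by 0.23 between glr3.3glr3.6 and Col-0 (-0.577 to 1.03). The response to L-Glu differed by -0.15 between p2k1p2k2 and Col-0 (-0.950 to 0.660) and by 0.34 between glr3.3glr3.6 and Col-0 (-0.462 to 1.15). All had an adjusted p of 1 in limma, in comparisons that called 0 of 16577 genes (0%). Unadjusted p-values below 0.05 numbered 477 and 294 genes for eATP, in p2k1p2k2 and glr3.3glr3.6, and 176 and 222 for L-Glu. These comparisons share the Col-0 libraries, Col-0 eATP 3 included, and without single libraries the sign of 3 of the 4 RBOHD values changed.

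The genotypes were then compared over the 3 treatments. RBOHD averaged 84.0 ± 12.5 FPKM in p2k1p2k2 (SD, n = 9; range 61.7 to 99.4, median 85.3), 117.1 ± 21.2 FPKM in glr3.3glr3.6 (82.0 to 154.7, median 117.9) and 96.3 ± 28.6 FPKM in Col-0 (48.7 to 149.2, median 89.7). The widest gap was that between the mutants. It was -0.47 for p2k1p2k2 minus glr3.3glr3.6 (SE 0.158, 95% interval -0.797 to -0.139), with an unadjusted p of 0.00743 and an adjusted p of 0.336 in limma, and so did not pass. In that comparison 46 of 16577 genes were called (0.277%).

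The replicate numbers bear on this gap. In treatment-matched groups of these 2 genotypes, libraries with the same number deviated together from their group means (correlation at least 0.147). They were therefore taken as paired. With the number fitted as a replicate block across genotypes, RBOHD in p2k1p2k2 was lower than in glr3.3glr3.6 at an adjusted p of 0.0369 in limma. There, 445 genes (2.68%) were called. With the block fitted within each genotype its adjusted p was 0.0575, above the threshold.

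RBOHD was lower in p2k1p2k2 in 9 of 9 pairs of libraries matched for treatment and number. The differences in log2(FPKM + 1) ran from -0.906 to -0.0212, with a median of -0.53. Over all tested genes, 2.90% kept a single sign in 9 of 9 such pairs. Averaged within replicate numbers 1, 2 and 3 the difference was -0.51, -0.40 and -0.49. After eATP the p2k1p2k2 libraries (70.6 to 88.0 FPKM) lay below all glr3.3glr3.6 libraries (117.9 to 129.9 FPKM), and 8.4% of tested genes likewise had groups that did not overlap. After L-Glu they also did not overlap, at 61.7 to 92.9 against 98.3 to 154.7 FPKM, as for 7.79% of tested genes. After mock they overlapped, at 77.8 to 99.4 against 82.0 to 125.0 FPKM, where the groups of 9.37% of tested genes did not. Summed guard cell markers were 22.5 FPKM in p2k1p2k2 and 23.1 FPKM in glr3.3glr3.6, and mesophyll markers 20333 and 19485 FPKM. Among the 4 guard cell genes, KAT1 differed by -0.27 (adjusted p 0.845 in limma). With the block within genotype KAT1 was lower in p2k1p2k2 (adjusted p 0.0385), among 557 of 16577 genes called. The part of these markers in the RBOHD difference was not tested.

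**Figure D3:**
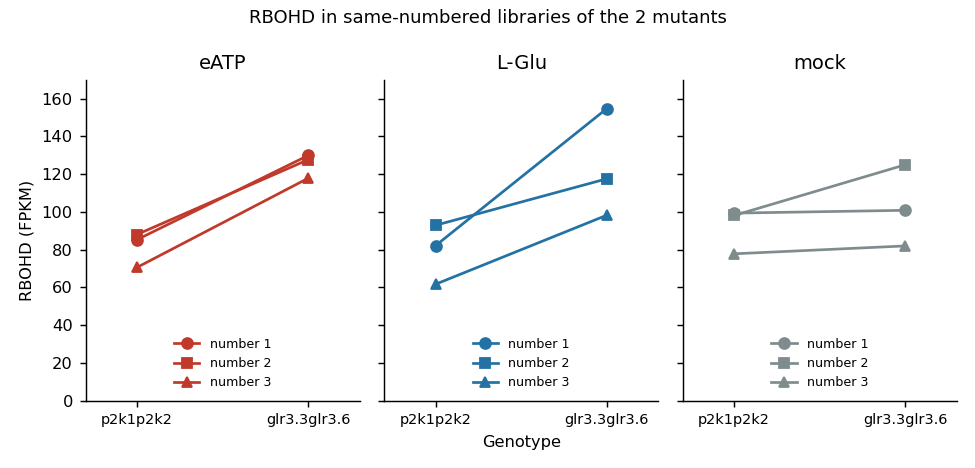
RBOHD level in FPKM in p2k1p2k2 (left of each panel) and glr3.3glr3.6 (right), with lines joining libraries of the same treatment and replicate number. All 9 lines run upward to glr3.3glr3.6, steeply after eATP and L-Glu and with 2 nearly level lines after mock.

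Against Col-0 neither mutant passed for either member. RBOHD in p2k1p2k2 differed from Col-0 by -0.15 (95% interval -0.480 to 0.177, adjusted p 0.746 in limma), in a comparison that called 18 of 16577 genes (0.109%), and was lower in 6 of 9 matched pairs. Without Col-0 eATP 3 this difference was -0.32, without Col-0 eATP 1 it was -0.09 and without Col-0 eATP 2 it was -0.0505. With the replicate block, which called 1098 genes (6.62%), neither RBOHD nor RBOHF was among those called. RBOHD in glr3.3glr3.6 differed from Col-0 by 0.32 (-0.0122 to 0.645, adjusted p 0.728), where 25 genes (0.151%) were called. Without Col-0 eATP 3 this difference was 0.15. With the replicate block across genotypes, which called 381 genes (2.3%), the RBOHD interval was 0.0698 to 0.563 (adjusted p 0.169 in limma). The RBOHF interval was -0.531 to -0.0561 (adjusted p 0.188 in limma), and neither member was called. These glr3.3glr3.6 and Col-0 libraries fell short of the pairing threshold. Among mock leaves, RBOHD differed by -0.02 between p2k1p2k2 and Col-0, where 6 genes were called (0.0362%), and by 0.13 between glr3.3glr3.6 and Col-0, where 8 were called (0.0483%). Both had an adjusted p of 1 in limma.

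RBOHF had these values, again for replicate numbers 1, 2 and 3. In p2k1p2k2 it was 2.93, 1.05 and 1.51 FPKM after eATP, 2.14, 1.53 and 1.48 after L-Glu, and 2.96, 1.48 and 1.26 after mock. In glr3.3glr3.6 it was 2.18, 1.42 and 1.22 FPKM after eATP, 2.49, 1.39 and 1.49 after L-Glu, and 1.71, 1.303 and 1.32 after mock. In Col-0 it was 5.17, 2.72 and 0.908 FPKM after eATP, 2.83, 1.74 and 1.77 after L-Glu, and 2.98, 1.505 and 1.53 after mock. In each of the 9 groups the library of number 1 was the highest. Col-0 eATP held the highest and the lowest library, and it was also the group with the widest spread of RBOHD.

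Group means of RBOHF ran from 2.93 ± 2.14 FPKM in Col-0 eATP, 2.11 ± 0.622 in Col-0 L-Glu and 2.01 ± 0.844 in Col-0 mock, through 1.90 ± 0.921 in p2k1p2k2 mock, 1.83 ± 0.980 in p2k1p2k2 eATP and 1.79 ± 0.611 in glr3.3glr3.6 L-Glu (SD, n = 3 each). The lowest were 1.72 ± 0.367 in p2k1p2k2 L-Glu, 1.61 ± 0.509 in glr3.3glr3.6 eATP and 1.45 ± 0.231 in glr3.3glr3.6 mock. All neighbours overlapped. By genotype RBOHF averaged 1.81 ± 0.701 FPKM in p2k1p2k2, 1.61 ± 0.440 in glr3.3glr3.6 and 2.35 ± 1.27 in Col-0 (SD, n = 9 each). It was below Col-0 in 8 of 9 matched pairs for p2k1p2k2, and 14.6% of tested genes had at least 8 of 9 such pairs of one sign. For glr3.3glr3.6 RBOHF was likewise below Col-0 in 8 of 9 matched pairs, beside 9.74% of tested genes. The glr3.3glr3.6 and Col-0 libraries fell short of the pairing threshold. The differences between p2k1p2k2 or glr3.3glr3.6 and Col-0, which share the Col-0 libraries, of -0.21 (95% interval -0.600 to 0.187, adjusted p 0.694) and -0.29 (-0.687 to 0.10, adjusted p 0.801) did not pass in limma. They were -0.35 and -0.44 without Col-0 eATP 3, and -0.0721 and -0.16 without Col-0 eATP 1. Between p2k1p2k2 and glr3.3glr3.6 it differed by 0.09 (-0.307 to 0.480, adjusted p 0.958).

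**Figure D4:**
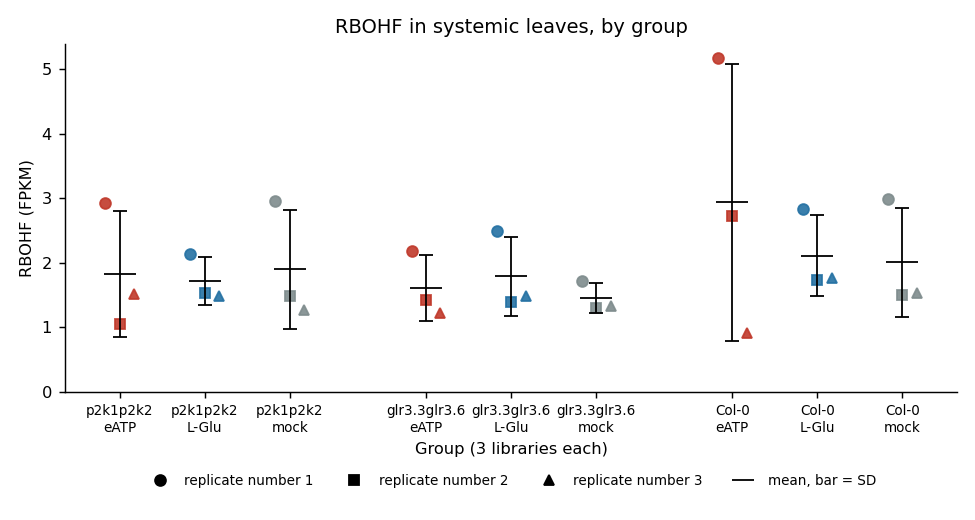
RBOHF level in FPKM in each library, by genotype and treatment, with marker shape for the replicate number and the mean and SD of each group of 3. Number 1 is the highest library of every group, and the Col-0 eATP group spreads from 0.908 to 5.17 FPKM.

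The replicate number, which crosses all genotypes and treatments, moved both members. RBOHF averaged 2.82 ± 0.986 FPKM in the 9 libraries of number 1 (1.71 to 5.17), 1.57 ± 0.470 in number 2 (1.05 to 2.72) and 1.39 ± 0.245 in number 3 (0.908 to 1.77). It was higher in number 1 than in numbers 2 and 3 by 0.60 (SE 0.0985, 95% interval 0.396 to 0.807, adjusted p 5.354e-05 in limma). RBOHD averaged 108.8 ± 23.7, 107.7 ± 23.0 and 80.9 ± 20.2 FPKM in numbers 1, 2 and 3. It was higher in number 2 than in number 3 by 0.42 (SE 0.118, 0.174 to 0.667, adjusted p 0.0125), and its difference of 0.22 between number 1 and the others did not pass (adjusted p 0.0716). RBOHF differed by 0.10 between numbers 2 and 3 (adjusted p 0.584).

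These contrasts called 8819 genes (53.2%) for number 1 against numbers 2 and 3, with 3074 higher and 5745 lower, and 4370 genes (26.4%) for number 2 against number 3. A call of 1 of 2 tested members is therefore near the share of all genes in the first and says little of the family. The labels do not say what a number stands for. Guard cell markers moved with it: they summed to 18.1 FPKM in number 1 (15.6 to 20.5), 27.4 in number 2 (21.4 to 32.7) and 21.5 in number 3 (19.6 to 24.3). Mesophyll markers summed to 18520, 21948 and 19579 FPKM and vascular markers to 133.3, 151.7 and 140.2 FPKM in the same order. Their part in the RBOH values was not tested.

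**Figure D5:**
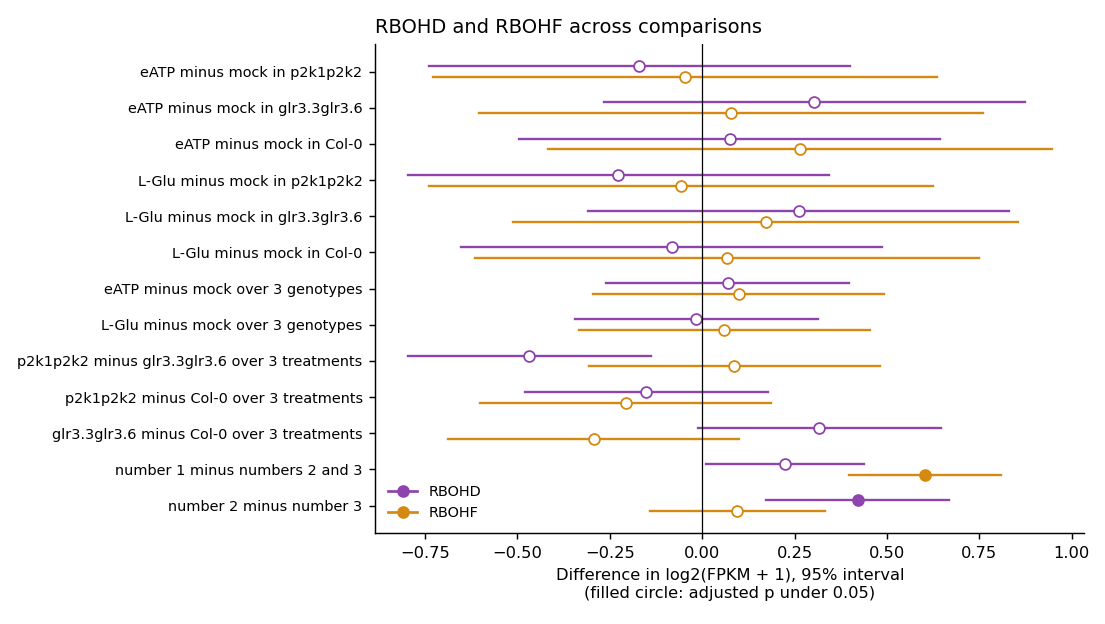
Difference in log2(FPKM + 1) with its 95% interval for RBOHD and RBOHF, with filled circles for an adjusted p under 0.05. Rows are eATP and L-Glu against mock within each genotype and averaged over genotypes, genotypes averaged over treatments, and replicate numbers. The filled circles are RBOHF for number 1 minus numbers 2 and 3, at 0.60, and RBOHD for number 2 minus number 3, at 0.42.

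No relation between RBOHD and RBOHF within a replicate number passed a test. Across the 9 libraries of number 1, 2 and 3, Pearson's r of their log2(FPKM + 1) was 0.196, 0.465 and 0.384, with two-sided exact permutation p of 0.622, 0.207 and 0.305 (0.622, 0.458 and 0.458 adjusted over the 3 relations). Spearman's rho was 0.133, -0.0667 and 0.167, with an exact permutation p of 0.744, 0.880 and 0.678 and an adjusted p of 0.880 each. Without the 2 libraries farthest from the median RBOHD value, r was 0.684, -0.271 and 0.0768.

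Among the low members RBOHC had the highest single value. This value, 0.560 FPKM, was in p2k1p2k2 mock 1, whereas no Col-0 library exceeded 0.122 FPKM. It averaged 0.210 ± 0.189 FPKM in p2k1p2k2, 0.182 ± 0.151 in glr3.3glr3.6 and 0.0649 ± 0.0380 in Col-0 (SD, n = 9 each). When no filter was applied, neither p2k1p2k2 (log2 difference 0.17, adjusted p 0.467 in limma) nor glr3.3glr3.6 (0.14, adjusted p 0.840) passed against Col-0. By group it averaged 0.177, 0.202 and 0.250 FPKM in p2k1p2k2 after eATP, L-Glu and mock, 0.154, 0.277 and 0.116 in glr3.3glr3.6, and 0.0716, 0.0681 and 0.0552 in Col-0. The root hair markers stayed at or below 0.155 FPKM in sum. After correction for relative depth, 22 of the 26 RBOHC values above 0 were whole multiples, within 0.1, of the lowest one. The lowest itself is counted, and the multiples went up to 29.

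RBOHI averaged 0.137, 0.0549 and 0.155 FPKM in numbers 1, 2 and 3. In the same fit without a filter, it was lower in number 2 than in number 3 by a log2(FPKM + 1) difference of -0.13 (adjusted p 0.0127 in limma over 25291 genes). With the filter this contrast called 26.4% of tested genes, and the share called without it is not given here. The lowest RBOHI value above 0 was 0.0302 FPKM, so these means lie near the floor and the call says little of RBOHI. RBOHA was above 0 in glr3.3glr3.6 eATP 1 (0.0171 FPKM), glr3.3glr3.6 L-Glu 3 (0.0185), Col-0 L-Glu 1 (0.0365) and Col-0 L-Glu 3 (0.0194). Of its 4 values 2 were whole multiples of the lowest, as were 8 of 9 for RBOHG, 4 of 4 for RBOHB, 11 of 24 for RBOHE and 10 of 25 for RBOHI. Each count includes the lowest value itself and depends on it as the base. Some RBOHI values lay near 2.5, 3.5 and 5.5 times its lowest, and some RBOHE values near 2.1, 4.2 and 6.3 times. A low count therefore does not show that values lie off such steps. In the RefSeq gene table of TAIR10.1, RBOHA overlaps AT5G07380 (0.531 FPKM), RBOHB overlaps RPT5B (5.62 FPKM), RBOHE overlaps AT1G19240 (14.8 FPKM) and RBOHG overlaps CHLM (295 FPKM). Whether fragments were assigned by strand is not given in the sources used here, so the low values of these 4 members are uncertain. The other 6 members overlap no gene there.

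Of the 13 genes listed as activators of RBOH proteins, all 13 were tested. Without the replicate block, P2K1 was the only one called in a treatment or genotype comparison. P2K1 is a gene for which the p2k1p2k2 line is named, so the call is at a targeted gene. Its RNA was higher in p2k1p2k2 than in Col-0 by 1.44 (SE 0.156, adjusted p 2.33e-05 in limma) and than in glr3.3glr3.6 by 1.37 (adjusted p 2.18e-05). Among mock leaves it was higher in p2k1p2k2 than in Col-0 by 1.53 (SE 0.270, adjusted p 0.0393). That last call was lost without p2k1p2k2 mock 1 or 3, or without any 1 of the 3 Col-0 mock libraries, where the adjusted p was 0.128 to 0.333 and the difference 1.32 to 1.61. It was also lost with no filter (adjusted p 0.0728) and in a fit of those 6 libraries alone (adjusted p 1). The median difference of the list between p2k1p2k2 and Col-0 was -0.04, beside 0.04 over all tested genes.

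OST1, the abscisic acid-activated kinase known to phosphorylate RBOHF, averaged 5.32 FPKM in p2k1p2k2, 6.41 in glr3.3glr3.6 and 7.73 in Col-0. It differed by -0.47 between p2k1p2k2 and Col-0 (adjusted p 0.188 in limma). With the replicate block across genotypes, where these libraries were taken as paired, OST1 passed at 5.14e-05, among 1098 genes called (6.62%). The block also called ROP2, a small GTPase of root hair growth, at -0.22 (adjusted p 0.0153). Between p2k1p2k2 and glr3.3glr3.6 the block called OST1 at -0.23 (adjusted p 0.0238), among 445 genes (2.68%). Between glr3.3glr3.6 and Col-0 it also called OST1 at -0.23 (adjusted p 0.0282), among 381 genes (2.3%). The block within genotype called OST1 there too (adjusted p 0.0380), among 394 genes. The glr3.3glr3.6 and Col-0 libraries fell short of the pairing threshold. Other activators with the smallest p in a comparison did not pass. These were CBL1, a calcium sensor, at -0.33 for glr3.3glr3.6 against Col-0, at 0.24 between p2k1p2k2 and glr3.3glr3.6, at 0.13 for eATP against mock and at 0.28 for L-Glu against mock. CPK11, a calcium-dependent kinase, differed by -0.08 for L-Glu against mock, and SIK1 and CRK2, kinases that phosphorylate RBOHD, by -0.15 and -0.16 for eATP against L-Glu.

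The list of genes that restrain RBOH proteins held 4 genes, of which 3 were tested and none was called for treatment or genotype. PBL13, at 0.166 FPKM, was below the filter. CPK28, a kinase that limits the level of the immune kinase BIK1, differed by -0.14 between p2k1p2k2 and Col-0, by -0.08 between p2k1p2k2 and glr3.3glr3.6, by 0.04 for L-Glu against mock and by -0.02 for eATP against L-Glu. PIRE, a ubiquitin ligase that acts on RBOHD, differed by -0.04 in glr3.3glr3.6 against Col-0, in eATP against mock and in L-Glu against mock. SCN1, which confines RBOHC activity to the tip of the root hair, differed by -0.14 in glr3.3glr3.6 against Col-0, by -0.05 in p2k1p2k2 against Col-0, and by 0.08 between p2k1p2k2 and glr3.3glr3.6. Both its treatment values for eATP, against mock and against L-Glu, were 0.01.

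Genes that sense, carry or remove reactive oxygen species between cells numbered 10, of which 8 were tested and 0 called for treatment or genotype. APX2 (0.0186 FPKM) and PDLP1 (0.759 FPKM) were below the filter. ZAT10, a zinc finger factor that responds to reactive oxygen species, averaged 200.9 FPKM in p2k1p2k2, 268.4 in glr3.3glr3.6 and 249.6 in Col-0. Its differences of -0.41 between p2k1p2k2 and glr3.3glr3.6 (adjusted p 0.193 in limma) and of -0.30 between p2k1p2k2 and Col-0 (0.260) did not pass. They passed with the replicate block across genotypes, at 0.00167 and 0.0137, where 2.68% and 6.62% of tested genes were called. For p2k1p2k2 against Col-0 the block also called ZAT12, a related factor, at -0.38 (adjusted p 0.0371) and the peroxisomal catalase CAT2 at -0.24 (0.0480), both with the block across genotypes and neither with the block within genotype. ZAT12 averaged 64.5 FPKM in p2k1p2k2, 67.2 in glr3.3glr3.6 and 84.3 in Col-0. CAT2 was at -0.26 and the hydrogen peroxide receptor HPCA1 at 0.20 for glr3.3glr3.6 against Col-0, and the cytosolic ascorbate peroxidase APX1 at 0.18 between p2k1p2k2 and glr3.3glr3.6, none of which passed.

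For the treatments, the members of this list with the smallest p were CSD1, a cytosolic superoxide dismutase, at 0.13, and the aquaporin PIP2A at -0.12 for eATP against mock. They were ZAT10 at -0.14 and PIP2A at -0.15 for L-Glu against mock, and CSD1 at 0.11 and CAT2 at 0.07 for eATP against L-Glu. P2K1 was at -0.26 for eATP against mock. All had an adjusted p of 1 in limma.

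The ferric reductase oxidases (FRO), flavocytochromes related to the RBOH proteins that reduce iron or copper, gave a comparison family of 8 genes. FRO1 (0.00502 FPKM), FRO2 (0.102) and FRO5 (0.00719) were below the filter, and 0 of the 5 tested were called for treatment or genotype. FRO8 differed by 0.28 in glr3.3glr3.6 and by 0.27 in p2k1p2k2 against Col-0. The second passed with the replicate block across genotypes (adjusted p 0.0423 in limma), where 6.62% of tested genes were called. It did not pass with the block within genotype. FRO3 differed by 0.23 and 0.11 in the same comparisons, by -0.12 between p2k1p2k2 and glr3.3glr3.6, by -0.14 for eATP against mock and by -0.11 for L-Glu against mock. FRO4 differed by 0.15 between p2k1p2k2 and glr3.3glr3.6. FRO8 for eATP against mock (-0.06) and against L-Glu (-0.09), FRO6 for L-Glu against mock (-0.26) and FRO7, a chloroplast enzyme, for eATP against L-Glu (0.29) did not pass.

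Between replicate numbers, counts of called list members are to be read beside the 53.2% of all tested genes called for number 1 and the 26.4% called for number 2 against number 3, and give no result about the lists. For number 1 against numbers 2 and 3, 6 of 13 activators were higher, among them OST1 at 0.49, CPK5 at 0.37, CRK2 at 0.25, BIK1 at 0.23, CPK6 at 0.22 and ROP2 at 0.15, and 2 were lower, CBL9 at -0.33 and SIK1 at -0.22. Of the 3 restraint genes tested, CPK28 at 0.45 and PIRE at 0.12 were higher. Of the 8 relay genes tested, ZAT12 at 0.81, ZAT10 at 0.36 and CAT2 at 0.24 were higher and APX1 at -0.30 was lower. Of the 5 FRO genes, FRO7 at 0.64, FRO6 at 0.53 and FRO3 at 0.26 were higher, and FRO8 at -0.16 was lower. The list medians were 0.12, 0.12, 0.14 and 0.26, beside -0.07 over all tested genes. For number 2 against number 3, OST1 at 0.28, ROP2 at 0.17, CPK4 at 0.14 and CPK28 at 0.27 were higher. CRK2 at -0.30, CAT2 at -0.43, PIP2A at -0.41, FRO4 at -0.70 and FRO7 at -0.46 were lower. The calls of FRO8, PIRE, CPK4 and FRO7 were close to the threshold and were lost in 26, 12, 10 and 13 of 33 alternatives each.

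The genes whose level followed RBOHD most closely over the 27 libraries, after the mean of each replicate number was taken out, were CNGC13 (Pearson's r 0.881), AT1G03220 (0.873), AT1G03230 (0.867), MLO2 (0.863) and RSH2 (0.843). With the number means kept they were AT2G24600 (0.811), AT1G13210 (0.808), AT5G43310 (0.797), AGP16 (0.794) and AT1G67530 (0.793). For RBOHF they were AT5G45430 (0.821), WRR4 (0.809), RIPK (0.789), AT3G47570 (0.776) and AT5G22690 (0.772) with the number means taken out, and AT5G22690 (0.907), PUB17 (0.898), RIPK (0.888), AT5G45430 (0.887) and AOAT2 (0.886) with them kept. An r of at least 0.8 was reached by 14 genes for RBOHD and 2 for RBOHF without the number means, and by 2 and 112 genes with them. These are descriptions over libraries that share group and number, with no test. The 5 leading genes of RBOHD with the number means taken out and those with them kept had no gene in common.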

How the data were processed

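The authors deposited FPKM per gene for 27 libraries. The submitters' processing notes name TAIR10 as the build, HISAT2 2.2.1 and SAMtools 1.19, Cuffdiff 2.2.1 and Cufflinks 2.2.1, and, for read quality, FastQC 0.11.9 and Trim Galore 0.6.7. Their order and settings, the annotation and any scaling between libraries are not given in the sources used here. FPKM carry no counts, so counting intervals were not computed, and their precision at low levels is limited by an unknown depth. The relative depth of libraries was estimated from the steps between low values, and read counts were not recovered.

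A pseudocount of 1 was added to the FPKM before taking log2. Genes averaging 1 FPKM or more, 16577 in all, were tested with limma 3.58.1 (R 4.3.3), using group means over the whole set of libraries and eBayes with an intensity trend (18 residual and 3.09 prior degrees of freedom). Contrasts of replicate numbers came from a fit with group and number (16 and 3.68). Fold changes on this scale understate those of low genes. The fit was tested on simulated data with independent noise in each library and no effect of replicate number. That test does not cover leaving the number out where it has an effect. Figures and tables were made in Python 3.11.15.

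Replicate numbers were checked for pairing by correlating the deviations of same-numbered libraries from their group means. All same-numbered correlations exceeded 0.1 in 30 of 36 pairs of groups. Treatment-matched p2k1p2k2 and glr3.3glr3.6 groups reached at least 0.147, and p2k1p2k2 and Col-0 groups at least 0.217, so these were taken as paired. Those of glr3.3glr3.6 and Col-0 (lowest 0.0581) fell short of 0.1, as did eATP and mock in glr3.3glr3.6 or Col-0 (0.0762 and 0.0369). These shortfalls were in number 3, and every same-numbered correlation was above 0. Without matched treatment, glr3.3glr3.6 mock also fell short with p2k1p2k2 eATP and L-Glu (0.0442 and 0.0983).

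The members, lists and tests were chosen with earlier results of these data known. The genes named are all members, every called gene of the 4 pathway lists and the 2 of each list with the smallest p in each averaged comparison, P2K1, and the 5 genes most like RBOHD and RBOHF. Alternatives were another pseudocount, other filters, quantile and median-of-ratios scaling, replicate blocks, library weights, only the groups compared, and each library left out. The difference in response between the mutants was added after the data were seen. RefSeq gene names matched 32539 identifiers and not 285. Coordinates and sequences of the members are not printed here, since the gene table is of TAIR10.1 and the submitters name TAIR10. The coordinates of that table were used to find the genes that overlap a member.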

Additional observations from a re-analysis of the deposited data

Results flagged for a closer look

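The differences of RBOHD between eATP and mock had opposite signs in the mutants. By replicate number they were -0.22, -0.15 and -0.14 on the log2(FPKM + 1) scale in p2k1p2k2 and 0.36, 0.03 and 0.52 in glr3.3glr3.6. Neither passed (adjusted p 1 in limma for each), and in glr3.3glr3.6 the eATP and mock libraries fell short of the pairing threshold (lowest correlation 0.0762). The responses differed by -0.47 on the log2(FPKM + 1) scale for p2k1p2k2 minus glr3.3glr3.6 (95% interval -1.28 to 0.331). This difference, a contrast added after the values were seen, did not pass in limma (p 0.234, adjusted p 1). The comparison called 0 of 16577 genes, with 575 at an unadjusted p below 0.05. With the replicate block across genotypes it called 7 genes (0.0422%), and RBOHD was not among them (adjusted p 0.603 in limma). For L-Glu the same contrast was -0.49 (-1.29 to 0.317, p 0.221, adjusted p 1), with 0 genes called and 461 at an unadjusted p below 0.05.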

How the results depend on the processing

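The treatment comparisons called 0 of 16577 genes in the main fit, so an unchanged count of 0 RBOH members there says little. The number of RBOH members called stayed as reported in 510 of 519 alternatives, with every change in the comparisons given next. For p2k1p2k2 minus glr3.3glr3.6 over the 3 treatments it was 1, RBOHD, with the replicate block across genotypes (difference -0.47) and with library weights (-0.51, adjusted p 0.0276), and without single libraries RBOHD ran from -0.52 to -0.41. For number 1 against numbers 2 and 3 it was 0 with a mean of at least 5 FPKM, 2 with median-of-ratios scaling and 2 with library weights, and 1 to 2 without single libraries (2 without Col-0 eATP 2, Col-0 eATP 3 or Col-0 mock 3). RBOHD was then 0.30, 0.19 and 0.16 to 0.27. For number 2 against number 3 it was 2 without a filter. With library weights RBOHD changed sign for L-Glu against mock in glr3.3glr3.6 (-0.0368), the eATP response of glr3.3glr3.6 against Col-0 (-0.29) and the L-Glu response of p2k1p2k2 against Col-0 (0.0150). The cause of these changes was not tested, except that RBOHF does not reach a mean of 5 FPKM and that RBOHI is tested without a filter.

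Without single libraries the sign changed for RBOHD in eATP against mock in Col-0 (-0.23 to 0.57), glr3.3glr3.6 mock against Col-0 mock (-0.0257 to 0.28), p2k1p2k2 mock against Col-0 mock (-0.0826 to 0.0919), the eATP response of glr3.3glr3.6 (-0.27 to 0.53) and of p2k1p2k2 (-0.74 to 0.0578) and the L-Glu response of p2k1p2k2 (-0.27 to 0.0201) against Col-0. Averaged over genotypes, RBOHD ran from -0.0319 to 0.23 for eATP and from -0.0738 to 0.0393 for L-Glu against mock, and from -0.0161 to 0.25 for eATP against L-Glu. RBOHF ran from -0.0013 to 0.16 between p2k1p2k2 and glr3.3glr3.6, from -0.0359 to 0.25 for eATP against mock, from -0.10 to 0.19 for eATP against L-Glu and from -0.0245 to 0.14 for number 2 against number 3. Named pathway genes kept sign and side of the threshold in 2098 of 2196 alternatives. The sign changed for SCN1 in eATP against mock (-0.00895 with quantile normalization, -0.0037 to 0.0313 without single libraries) and against L-Glu (-0.00607 with library weights, -0.00977 to 0.0253 without single libraries), CPK28 in L-Glu against mock (-0.0384 to 0.11) and eATP against L-Glu (0.0289 with library weights, -0.11 to 0.0751 without single libraries) and PIRE in eATP against mock (-0.0755 to 0.0032). The count of all genes called over the 3 treatments was 18 for p2k1p2k2 against Col-0 (1098 with the block, 157 with library weights). It was 46 for p2k1p2k2 against glr3.3glr3.6 (445 and 247). For glr3.3glr3.6 against Col-0 it was 25 (381 with the block, where the libraries fell short of the pairing threshold).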
